A study of Arabidopsis thaliana with 6 samples.

Results

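Transcript levels of the WRKY transcription factor genes and of the zinc-finger gene ZAT10 were compared between wild-type Arabidopsis of the Wassilewskija accession (Ws) and the mutant bzip63-2 at the end of the night. WRKY proteins bind DNA through a conserved domain that carries the amino acids of their name next to a zinc finger, and the sequence they recognise, the W-box, is frequent in promoters of defence genes and of WRKY genes themselves. The family is known for its roles in immunity, leaf senescence and nutrient responses, and many members are transcribed within minutes of a stimulus. ZAT10, also called STZ, is a zinc-finger repressor that is likewise induced quickly by salt, cold, drought and strong light, and it is a substrate of stress-activated MAP kinases.

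Genes were taken as members when the platform annotation gave a probe set exactly 1 gene whose symbol was WRKY followed by a number, and ZAT10 was added, which is listed there under its symbol STZ. This gave 7 genes, 6 WRKY genes and ZAT10, of 13356 genes with such a probe set. Each member had a single probe set, so no choice between probe sets was needed. The RefSeq table holds 67 genes with a WRKY number as symbol, and the others were not analysed here as members.

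The samples were 6 Affymetrix ATH1 arrays, 3 of Ws and 3 of the T-DNA insertion line bzip63-2, which carries its insertion in a Ws background and is a single line. Each array held RNA of the 4 youngest leaves pooled from 5 plants, 25 days after germination, grown at 22 °C in short days (light for 10 h, dark for 14 h) and harvested before the light came on. The methods of the study add the shoot apical meristem to the leaves. In such bulk tissue, fewer cells of a type and less RNA per cell cannot be told apart. The deposited values are on a log2 scale with a lowest value of 2.469 shared by every array, and a probe set was taken as above this floor when it exceeded 2.519 (the floor plus 0.05) on at least 1 array.

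By that margin, 39.6% to 42.4% of probe sets were at the floor on a given array, and arrays of a genotype correlated at 0.993 to 0.996. The signal for bZIP63 itself, the gene targeted in this line, was higher under the bzip63-2 label (8.55 to 8.78) than in Ws (5.32 to 5.91). Where its probe set lies relative to the insertion was not examined, so this signal cannot be read as the level of an intact transcript. Each direction below rests on the labels. Of 5 leaf markers, only RCA, the Rubisco activase gene, had a named probe set, at 11.52 to 11.82 over all arrays. CLV3, the stem cell marker of the shoot meristem, and EXPA7, a root hair expansin, lay at 2.469 on every array. FAMA, a guard cell factor, ranged from 2.75 to 2.85 in Ws and from 2.87 to 2.93 in bzip63-2. No other marker of guard cells, and none of trichomes or phloem, was named here.

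Of the 7 members, 5 rose above the floor on at least 1 array, namely WRKY53, WRKY22, WRKY20, WRKY6 and ZAT10; over all probe sets this share was 67.3%. The remaining members, WRKY42 and WRKY47, gave the same value on all 6 arrays, 2.469 and 2.47, so no level was measured for them in either genotype. WRKY53, WRKY22, WRKY20 and WRKY6 were above the floor on all 6 arrays. ZAT10 was above it on the 3 bzip63-2 arrays and on 1 of the 3 Ws arrays, there by a narrow margin (2.521 against 2.519).

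**Figure D1:**
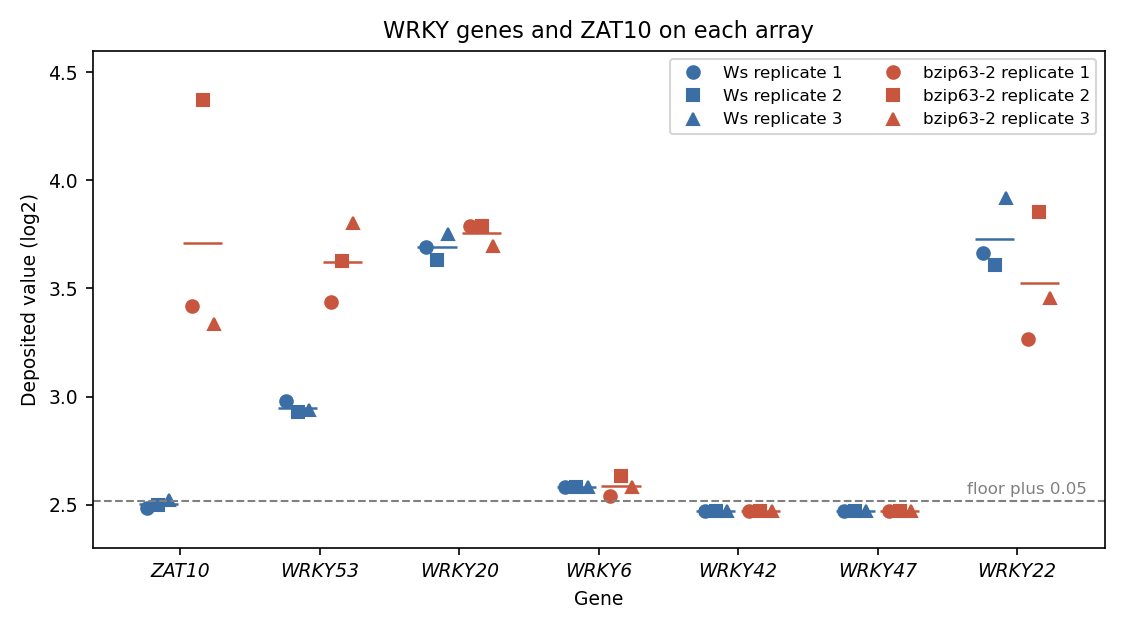
Deposited log2 value (y axis) of each of the 7 genes (x axis) on the 3 Ws arrays (blue) and the 3 bzip63-2 arrays (red), with short lines for the group means and a dashed line at the floor plus 0.05. The genotypes separate for ZAT10 and WRKY53 and overlap for WRKY20, WRKY6 and WRKY22, while WRKY42 and WRKY47 stay at the floor.

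ZAT10 (AT1G27730) showed the larger of the genotype differences among the members. Its log2 values were 2.484, 2.499 and 2.521 in Ws and 3.419, 4.374 and 3.336 in bzip63-2. All 3 bzip63-2 arrays lay above all 3 Ws arrays, with a gap of 0.82 between the groups, and replicate 2 of bzip63-2 stood well above the other two. The means were 2.50 for Ws (SD 0.02, n = 3 arrays) and 3.71 for bzip63-2 (SD 0.58, n = 3). The log2 difference was 1.21 (standard error 0.32). Since Ws lay at the edge of the floor, Ws values under 2.519 were also set to that value. The group means then differed 2.28-fold, with bzip63-2 higher. This fold takes no account of the spread among the bzip63-2 arrays, so it is an estimate and not a lower limit.

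Tested across all probe sets, the ZAT10 difference was not called (adjusted p = 0.578 from limma). In this fit 0 of the 22746 probe sets were called. Even bZIP63, with an 8.48-fold difference, had an adjusted p of 0.114 from limma. Not being called therefore says little about ZAT10 or the members below. Its unadjusted p from limma was 0.0157, and the exact two-sided permutation test gave p = 0.1, the smallest that 3 against 3 arrays allow. Without bzip63-2 replicate 2 the log2 difference was 0.88 (standard error 0.03), and the adjusted p from limma was 0.101. The Ws arrays lay at the edge of the floor, where their spread cannot be read as that of the transcript level. The small standard error is therefore no measure of precision, and the unadjusted p rests on the same Ws spread.

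WRKY53 (AT4G23810) encodes a group III WRKY factor that promotes the onset of leaf senescence and acts in defence. Its log2 values were 2.979, 2.929 and 2.936 in Ws and 3.437, 3.627 and 3.802 in bzip63-2. The Ws arrays fell within 0.05 of each other, and every bzip63-2 array lay above them, by at least 0.46. The means were 2.95 for Ws (SD 0.03, n = 3 arrays) and 3.62 for bzip63-2 (SD 0.18, n = 3). The log2 difference was 0.67 (standard error 0.10), a 1.6-fold difference.

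WRKY53 did not pass over all probe sets either (adjusted p = 0.328 from limma), with an unadjusted p of 0.00184 from limma and an exact two-sided permutation p of 0.1. When the fit was limited to probe sets with means above 3, WRKY53 passed (adjusted p = 0.0378 from limma over 8242 probe sets), and ZAT10 did not (adjusted p = 0.0889 from limma). Both genes met this limit on the mean of the 6 arrays only through their higher bzip63-2 values, as their Ws means of 2.95 and 2.50 lay under 3, so the call in the limited fit depends on the difference itself and does not support it. That WRKY53 passes this filter was also known before the genes were chosen.

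WRKY22 (AT4G01250), a group IIe factor known from the MAP kinase cascade that follows flagellin perception and from dark-induced senescence, had its group means in the opposite order. Its log2 values were 3.664, 3.608 and 3.919 in Ws and 3.267, 3.854 and 3.456 in bzip63-2. The genotypes overlapped, because bzip63-2 replicate 2 lay among the Ws arrays while the other two lay below them. Leaving out that replicate, the only bzip63-2 array within the Ws range, makes the genotypes separate by construction, so that separation is no result. The log2 difference was then -0.37 (adjusted p = 0.875 from limma). Over all arrays the log2 difference was -0.20 (standard error 0.19), with a 95% interval from -0.71 to 0.30. It was not called (adjusted p = 0.744 from limma), and the interval leaves room for a difference in either direction.

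WRKY20 (AT4G26640), a group I factor with a pair of WRKY domains, was among the steadiest members above the floor. Its log2 values were 3.694, 3.634 and 3.751 in Ws and 3.788, 3.791 and 3.697 in bzip63-2. The genotypes overlapped, with bzip63-2 replicate 3 between the Ws arrays. The log2 difference was 0.07 (standard error 0.04; adjusted p = 0.744 from limma), and its 95% interval ran from -0.05 to 0.18.

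WRKY6, WRKY42 and WRKY47 belong to group IIb. WRKY6 (AT1G62300), a factor of senescence, defence and phosphate responses, lay close to the floor. Its log2 values were 2.581, 2.581 and 2.58 in Ws and 2.541, 2.632 and 2.581 in bzip63-2. The bzip63-2 arrays scattered around the nearly constant Ws arrays, and the log2 difference was 0.004 (standard error 0.03), with a 95% interval from -0.06 to 0.07. At 0.16 above the floor at most, a difference in this gene is hardly measurable. WRKY42 (AT4G04450), which acts on phosphate transport, and WRKY47 (AT4G01720) gave no measured level.

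Counted over the 7 members, 0 passed an adjusted p under 0.05 from limma in either direction, against a background of 0% of all probe sets higher and 0% lower. At an unadjusted p under 0.05 from limma, 2 members were higher in bzip63-2 (4.33% of all probe sets) and 0 were lower (2.04% of all). The same 2 members, ZAT10 and WRKY53, were those whose Ws and bzip63-2 arrays separated completely, both higher (6.81% of all probe sets). In the lower direction 0 separated (3.23% of all). ZAT10 was added by name, and WRKY53 was the only WRKY member that separated. Since the members were chosen with earlier results of these data known, these counts are no result about the family. The median log2 difference was 0.004 over the 7 members and 0 over all probe sets. Of the other 5 members, 3 were above the floor and overlapped, and 2 had no measured level.

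**Figure D2:**
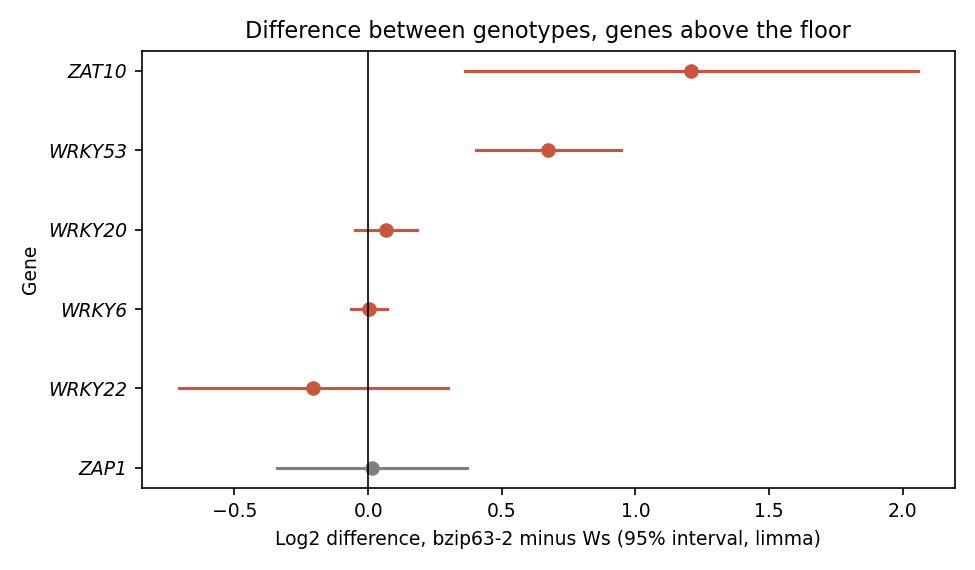
Log2 difference, bzip63-2 minus Ws (x axis), with its 95% interval from limma, for the members above the floor (red) and for ZAP1, a WRKY gene outside the rule (grey). The unadjusted intervals of ZAT10 (0.36 to 2.06) and WRKY53 (0.40 to 0.95) lie above 0 and the others span it.

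Genes outside the rule gave WRKY values of both kinds. ZAP1 (AT2G04880), which has WRKY1 as a synonym and carries a pair of WRKY domains like WRKY20, had log2 values of 3.896, 3.624 and 3.987 in Ws and 3.936, 3.936 and 3.675 in bzip63-2. These overlapped almost fully, with a log2 difference of 0.01 (95% interval from -0.34 to 0.37; adjusted p = 1 from limma). WRKY33 (AT2G38470), a MAP kinase substrate needed for camalexin synthesis and resistance to necrotrophic fungi, is named here only through the list of changed genes that the study drew from these arrays, so its values are a description without a test. They were 2.476, 2.479 and 2.589 in Ws and 3.351, 4.571 and 3.547 in bzip63-2. As for ZAT10, the Ws arrays lay at or near the floor and bzip63-2 replicate 2 was the highest array.

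Replicate 2 of bzip63-2 was the highest array of its genotype for 4 of the 5 members above the floor, namely ZAT10, WRKY22, WRKY20 and WRKY6. For WRKY20 this was by only 3.791 against 3.788, and WRKY6 lay near the floor. The share of all probe sets with replicate 2 highest was not computed, so this count has no background. WRKY53 was the exception, with replicate 3 highest. A stricter count over all probe sets asked for an array more than 0.5 above both others of its genotype. Replicate 2 of bzip63-2 met it at 69 probe sets, against 30 for replicate 1 and 18 for replicate 3. Of the members, only ZAT10 met it. Among the Ws arrays, replicate 3 met it at 118 probe sets, against 6 and 24. The part of these array differences in the values of ZAT10 and WRKY22 was not tested.

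Genes that act with WRKY factors or are induced in the same responses were listed in 5 groups, 83 genes in all, of which only 10 had a named probe set. At an adjusted p under 0.05 from limma 0 of the 10 were called, 0 had an unadjusted p under 0.05, and the genotypes overlapped for each of them. Over all probe sets, 0% passed the adjusted threshold. The unadjusted threshold was passed by 4.33% higher and 2.04% lower, and 6.81% and 3.23% separated. With 10 genes, counts of 0 are close to these shares and are no result about the lists. Most lay near the floor, so these lists say little about the pathway as a whole.

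Among the zinc-finger relatives of ZAT10, 2 of 10 were named. ZAT5 had log2 values of 2.951 to 3.424 in Ws and 3.107 to 3.453 in bzip63-2, with a difference of 0.08 (95% interval from -0.36 to 0.52), so it did not share the separation seen for ZAT10. ZAT18 lay at the floor. Of 16 MAP kinase cascade genes and VQ proteins, which bind WRKY factors, IKU1 alone was named, and its values stayed between 2.489 and 2.554.

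Of 19 defence genes downstream of WRKY factors, 2 were named. PDF1.2A, a plant defensin, ranged from 2.559 to 2.794 and SAG101, a partner of EDS1 in immunity, from 2.51 to 2.646 over the 6 arrays. ACS6, an enzyme of ethylene synthesis, is named only by the list of the study. Its log2 values were 3.094, 2.837 and 3.122 in Ws and 3.841, 5.179 and 4.294 in bzip63-2, again with replicate 2 highest.

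Of 25 rapidly induced stress, touch and wound genes, 3 were named. CML38, a calmodulin-like calcium sensor induced by wounding, was at 2.533, 2.533 and 2.49 in Ws and at 2.544, 3.037 and 2.514 in bzip63-2, so it left the range of the other arrays in replicate 2 alone. The ubiquitin ligase genes PUB22 and PUB23, negative regulators of immunity, had differences of 0.002 and -0.005. CBF2, a regulator of cold acclimation that only the list of the study names, had 3.402, 3.365 and 3.16 in Ws and 4.193, 4.834 and 4.887 in bzip63-2, with replicates 2 and 3 close together.

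Of 13 leaf senescence genes, the field in which WRKY53 is best known, 2 were named. ATG8H, an autophagy gene, had 2.919, 2.931 and 2.965 in Ws and 2.88, 3.136 and 3.144 in bzip63-2, which overlapped because replicate 1 lay below Ws. SAG29, a sugar transporter, had 2.557, 2.538 and 2.477 in Ws and 2.538, 2.945 and 2.538 in bzip63-2, high in replicate 2 alone. Only the list of the study names ORE1 and SEN1. ORE1, a NAC factor that drives senescence, had 2.501 to 2.511 in Ws and 2.634 to 2.878 in bzip63-2, whereas SEN1, a dark-inducible gene, had 7.549 to 8.311 in Ws and 6.753 to 7.181 in bzip63-2. The senescence genes with values therefore did not share one direction. ACS6, CBF2, ORE1, SEN1 and WRKY33 were selected by the study on these same arrays, and their separation is not independent evidence.

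**Figure D3:**
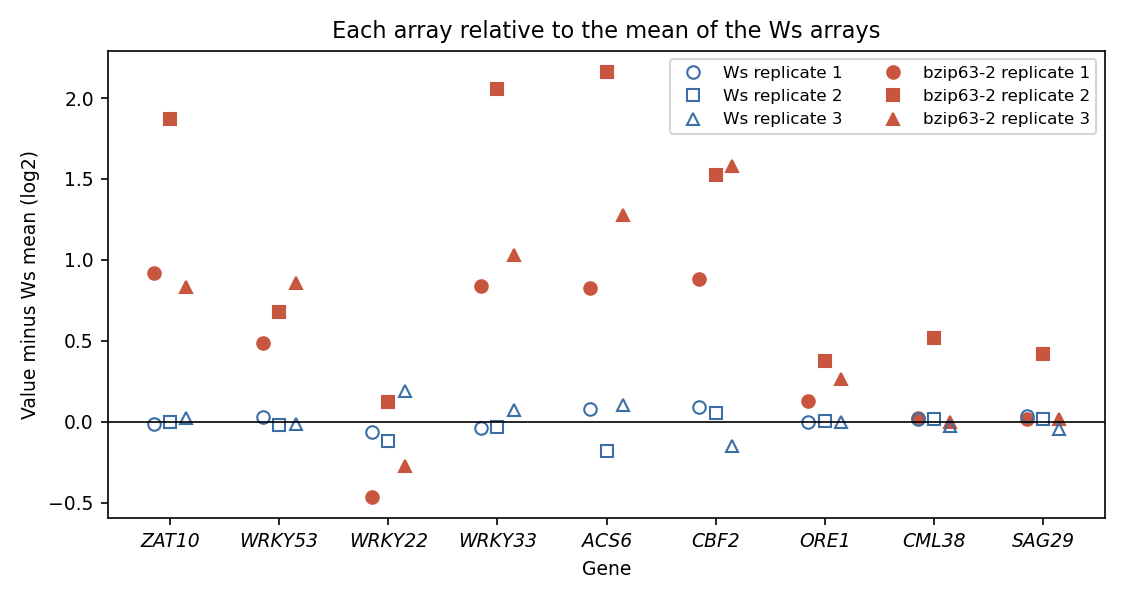
Value of each array minus the mean of the 3 Ws arrays (y axis, log2) for ZAT10, WRKY53 and WRKY22 and for genes of the related lists (x axis), with Ws arrays as open blue and bzip63-2 arrays as filled red symbols. The square of bzip63-2 replicate 2 is the highest for ZAT10, WRKY33, ACS6, ORE1, CML38 and SAG29, whereas replicate 3 is the highest bzip63-2 array for WRKY53 and CBF2. The list genes shown are a selection. Among those not shown, replicate 3 is the highest bzip63-2 array for ZAT5, ATG8H, IKU1, PUB22 and SEN1, and replicate 2 for SAG101 and PUB23.

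The differences of both separated members were recomputed with each array left out. ZAT10 had a log2 difference between 0.88 and 1.40, lowest without bzip63-2 replicate 2, and WRKY53 one between 0.58 and 0.77, lowest without bzip63-2 replicate 3. Both stayed positive in all 6 of these fits, and the adjusted p from limma stayed above 0.05 in each. Without Ws replicate 1 or Ws replicate 2, the unadjusted p of ZAT10 from limma was 0.0507 and 0.0501, so 1 member in place of 2 was under 0.05.

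**Figure D4:**
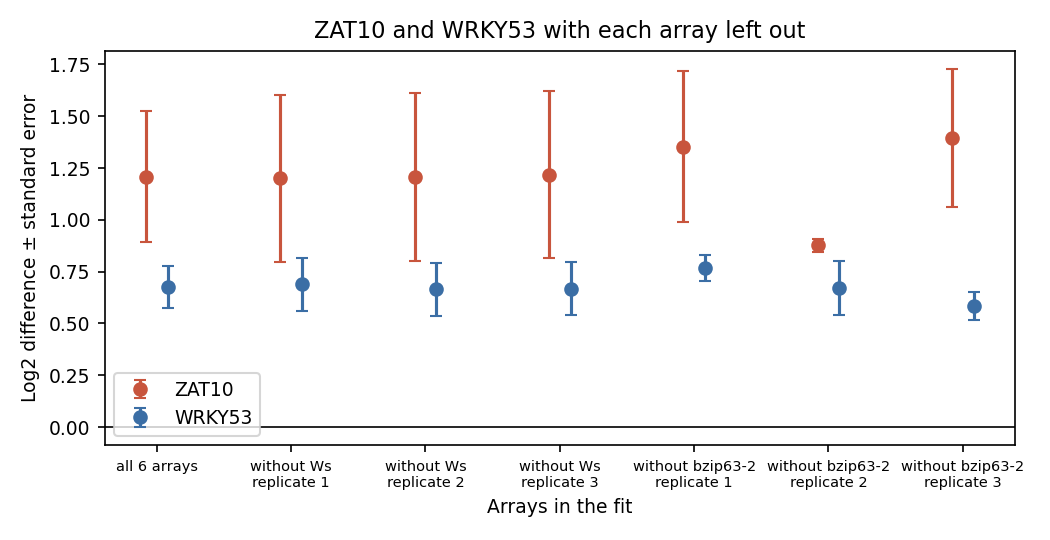
Log2 difference, bzip63-2 minus Ws, with its standard error from limma (y axis) for ZAT10 (red) and WRKY53 (blue), over all 6 arrays and with each array left out in turn (x axis). ZAT10 is lowest, with the smallest error, without bzip63-2 replicate 2 (0.88), and WRKY53 stays between 0.58 and 0.77. The errors of ZAT10 include Ws arrays at the edge of the floor, so the smallest is no measure of precision.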

How the data were processed

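The authors made the deposited log2 values, one per probe set and array, by RMA in Affymetrix Expression Console and analysed them with affylmGUI; their versions were not found in the labels or methods. The log2 scale was inferred from the range of the values. The step that set the common lowest value is not stated, and a difference against a group at the floor may be understated.

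A linear model (lmFit, eBayes; limma 3.58.1, R 4.3.3) was fitted to 22746 probe sets, without the 64 controls, with Benjamini-Hochberg adjustment over all of them. Differences are bzip63-2 minus Ws. The number of arrays limits the precision. The platform annotation gave 13513 probe sets 1 gene and 503 several, and 8730 were not listed in it; symbols came from the RefSeq table of TAIR10.1. Genes were named in the text by a rule: ZAT10, WRKY53, bZIP63, members with a mean above 3, members that separated or had a small p, and the brightest genes of each list. WRKY6, WRKY42, WRKY47, ZAP1, WRKY33, ACS6, CBF2, ORE1, SEN1 and the neighbouring genes were added after their values were seen. The members and lists were chosen with earlier results of these data known. The fit was tested on simulated data, with changes placed only in probe sets with means above 4. No member lay there, so that test does not cover the members. Alternatives covered the prior on variances, dim probe sets, weighting of arrays, repeated normalization, a replicate block, probe set choice, the margin above the floor and each array left out. Protein and promoter sequences were not used here. Whether the pools came from separate cultivations is not stated beyond biological replicates.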

Additional observations from a re-analysis of the deposited data

How the results depend on the processing

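Over 153 recomputed values, 147 kept their direction and their side of the threshold or, for a count, stayed within 1.5 times. This total is no measure of robustness. Each member had a single probe set, so the alternatives on probe set choice repeated the main values and could not differ. Many of the other values were counts that stayed at 0. In the fit limited to means above 3, which held 4 of the 7 members, 1 member was higher at an adjusted p under 0.05 from limma in place of 0; it was WRKY53, with the same log2 difference of 0.67, and it entered this fit only through its bzip63-2 values, since its Ws mean was 2.95. In the fit limited to means above 4, no member could be fitted. Leaving out 1 array gave 1 to 2 members higher at an unadjusted p under 0.05. Without overlap, 2 to 3 members were then higher and 0 to 1 lower. The added higher member was WRKY20, without Ws replicate 3 or without bzip63-2 replicate 3. The lower member was WRKY22 without bzip63-2 replicate 2, with a log2 difference of -0.37. In each case the array left out was the one that made the genotypes overlap, so these added separations were fixed beforehand. Fewer arrays also separate more easily by chance, and the share over all probe sets with an array left out was not computed. WRKY6, near the floor, had a log2 difference between -0.020 without bzip63-2 replicate 2, a reversal, and 0.026 without bzip63-2 replicate 1. The adjusted p from limma ranged from 0.0378 to 0.614 for WRKY53 and from 0.0889 to 0.808 for ZAT10 over the alternatives. Arrays of the same number did not deviate together more than others. The correlations of their deviations were -0.02, 0.02 and 0.05, and those of unlike number ran from -0.09 to 0.08. Such whole-table values cannot decide whether the numbers pair the arrays. With a replicate block 0 members passed, and the log2 differences were 0.67 for WRKY53 (adjusted p = 0.558 from limma) and 1.21 for ZAT10 (adjusted p = 0.695).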

Other observations

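The protein-coding genes next to the members in the RefSeq order of TAIR10.1 were read for comparison, a step chosen after the values of the members had been seen. For WRKY53, both direct neighbours had a named probe set and neither shared its separation upwards. 3xHMG-box2, which encodes a chromatin protein, had log2 values of 4.514, 4.844 and 4.236 in Ws and 4.917, 4.652 and 4.551 in bzip63-2, and the genotypes overlapped. AT4G23820 had 6.19, 5.995 and 6.169 in Ws and 5.818, 5.882 and 5.872 in bzip63-2, lower in all 3 arrays, with a log2 difference of -0.26 (standard error 0.06; adjusted p = 0.514 from limma). The neighbours of ZAT10 have no named probe set here.

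WRKY47 itself stayed at the floor, whereas the gene next to it, listed as CRK (AT4G01710), had 2.49, 2.496 and 2.559 in Ws and 2.693, 2.683 and 2.831 in bzip63-2. Its log2 difference was 0.22 (standard error 0.05), with no overlap between the genotypes and an adjusted p of 0.496 from limma. Only 1 of its Ws arrays was above the floor margin. The other neighbours with a named probe set, AT4G26650, AT1G62290, AT4G04460, AT4G01730 and AT4G01240, did not separate. Over all probe sets, 6.81% separated with bzip63-2 higher and 3.23% with it lower.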
